A study of Mus musculus with 8 samples.

Results

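The comparison described here is the difference between gastrocnemius and tibialis anterior (TA) in the effect of losing a copy of Eif6. Each array gave a log2 ratio of the Eif6+/- channel (Cy5) over the wild-type channel (Cy3), and the mean of the 4 TA arrays was subtracted from the mean of the 4 gastrocnemius arrays, probe by probe. All 8 of the 8 arrays of the series were used. Of 20660 genes named on the array, 12210 were bright enough to be tested.

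The mice were young C57BL6 males of 8 to 16 weeks, either Eif6+/- or Eif6+/+ (WT), and were littermates. On every array the muscle of an Eif6+/- mouse was set against that of a WT mouse of like age, paired at random. Whether gastrocnemius and TA arrays of the same pair number came from the same mice is not stated. A positive difference means that the Eif6+/- over WT ratio was higher in gastrocnemius than in TA, and a constant dye bias of a gene that all arrays share drops out of it, while a difference in scale between the dyes does not.

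Eif6 keeps the large ribosomal subunit from joining the small one until it is released, and so sets how many subunits are free to start translation. Gastrocnemius and TA are both mainly fast muscles of the lower hindlimb, and the gastrocnemius also holds a deep oxidative region. Fibres differ in myosin isoform, in mitochondrial content and in the fuel they burn, and whole muscle also holds fat, connective tissue, vessels, nerve and immune cells.

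Median spot intensities ran from 65 to 74 in Cy5 and from 47.5 to 55 in Cy3 on the gastrocnemius arrays, and from 60 to 64.5 and from 46 to 61 on the TA arrays. The share of spots that Agilent's software marked as clearly brighter than background was 43.6% to 48.7% for Cy5 and 38.8% to 46.0% for Cy3, so the dimmer portion of the genes was not measured. The number of arrays limits the precision: a 95% interval of the difference typically reached 0.27 to either side on the log2 scale (median over probes), while the median size of the difference was 0.10. All gastrocnemius arrays lay in one row of a single slide and all TA arrays in the other, so an effect of position on the slide cannot be told apart from one of the muscle.

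Eif6 itself was measured first. Its log2 ratios were −0.97, −1.15, −0.89 and −1.06 on the gastrocnemius arrays and −1.22, −1.03, −0.95 and −0.80 on the TA arrays. Both muscles were low on every array and their values overlapped. The difference was −0.02 (95% interval −0.26 to 0.23; limma, unadjusted p = 0.87), and a second Eif6 probe gave −0.01. The sign of so small a value turned with the normalization, to 0.0027 with loess alone and 0.0038 in the authors' ratios, and with Gastroc pair 2 or TA pair 4 left out, to 0.03 and 0.05.

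No gene passed the test of the difference across all probes: 0 of 12210 genes (0%) had a limma adjusted p under 0.1. The lowest adjusted p was 0.269, for Lrtm1, and the next was 0.635. At an unadjusted p under 0.05 there were 998 genes, 574 higher in gastrocnemius (4.7%) and 424 lower (3.47%). Together they are 8.17% of the genes, where a share of 0.05 is expected with no difference at all. SAM called 1 gene at an FDR of 0.1, which was Lrtm1, and the methods' t-test with adjusted p-values called the same gene. Agilent's processed signals called 1 gene, Pcnx2, and dropping the filter on dim probes again called Lrtm1. The count at an unadjusted p under 0.05 was 1821 without Gastroc pair 2, 604 without Gastroc pair 3 and 623 without TA pair 3, with 0 genes called in each case. The p-values measure the spread between these arrays, and within a muscle each array carried a separate pair of mice.

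What follows therefore describes genes by consistency over arrays. In 496 genes the gastrocnemius ratios did not overlap the TA ratios: 321 were higher in gastrocnemius (2.63%) and 175 lower (1.43%). Together they are 4.06% of the genes, where arrays that did not differ by muscle would give a share of 0.0286 on average. Many genes without overlap are thus to be expected without a difference between muscles. In 304 of the 496 the mean ratios of the muscles had opposite signs, and in 326 the gastrocnemius mean was larger in size. All gastrocnemius ratios were above 0 and all TA ratios below it in 51 genes, and the reverse held in 27. The lead genes are the 10 of smallest p in either direction among these 496. An exact two-sided permutation test over the arrays gives each lead 0.0286 by construction, the smallest p it can give with 4 arrays against 4. Across genes the mean ratios of the muscles had a Pearson r of 0.53 over 12210 genes, which are not independent replicates.

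**Figure D1:**
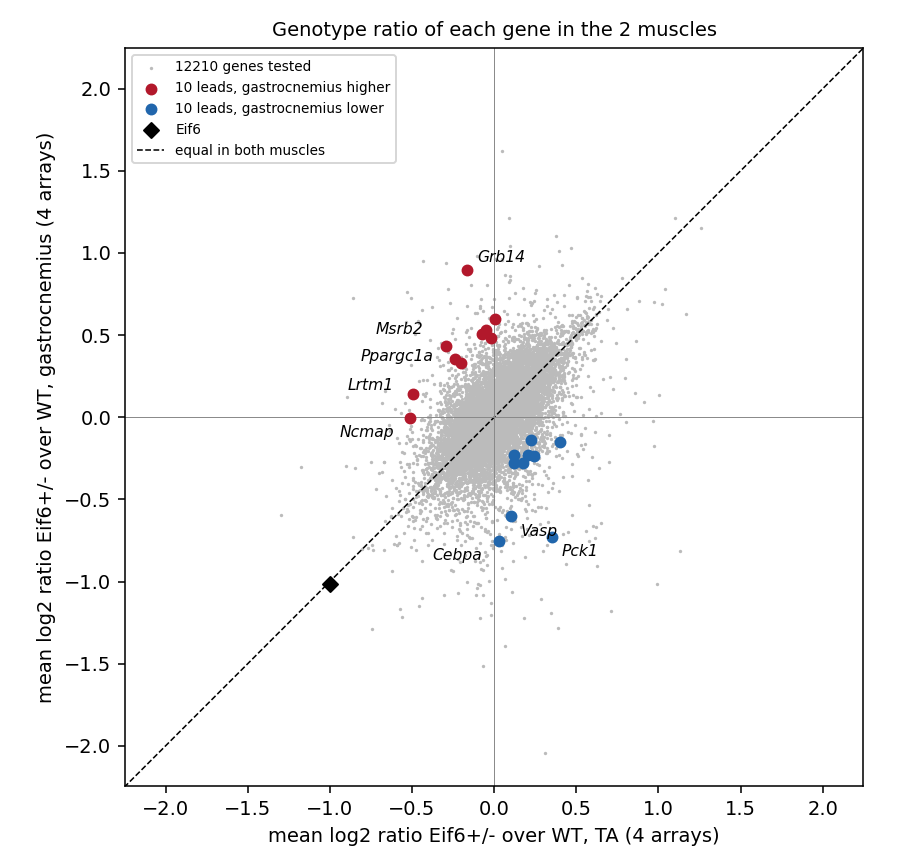
Mean log2 ratio of Eif6+/- over WT in TA (horizontal axis, 4 arrays) and in gastrocnemius (vertical axis, 4 arrays) for each of 12210 genes. Red and blue points are the 10 lead genes of either direction, none of them called, and Eif6 lies on the dashed line of equal ratios with a difference of −0.02.

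Lrtm1, which encodes a membrane protein with leucine-rich repeats, had the smallest p of the genes tested. Its log2 ratios were 0.21, 0.13, 0.06 and 0.17 in gastrocnemius and −0.49, −0.50, −0.48 and −0.50 in TA. The TA arrays were low and lay close together, and every gastrocnemius array was above 0. The difference was 0.64 (95% interval 0.45 to 0.82; limma, unadjusted p = 1.2e-05, adjusted p = 0.269), in 4 of 4 arrays on either side, and it was 0.59 to 0.66 over all settings tried. In intensity, the gene was brighter in TA in both genotypes, with log2 levels of 11.44 ± 0.29 in WT and 10.95 ± 0.28 in Eif6+/- TA (SD, n = 4), against 9.56 ± 0.25 in WT and 9.70 ± 0.31 in Eif6+/- gastrocnemius. The gap between the muscles was thus −1.88 in WT and −1.25 in Eif6+/-.

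Ppargc1a, the coactivator that drives mitochondrial biogenesis and oxidative metabolism in muscle, was among the lead genes. Its ratios were 0.30, 0.20, 0.46 and 0.37 in gastrocnemius and −0.07, −0.15, −0.46 and −0.12 in TA. Every gastrocnemius array was above 0 and every TA array below it. The difference was 0.53 (95% interval 0.29 to 0.78; limma, unadjusted p = 0.00062), which did not pass the adjustment. A second, dimmer probe of the gene gave 0.08 with overlapping values, and the mean of the probes gave 0.30. WT levels were lower in gastrocnemius than in TA by a log2 difference of −0.36, and Eif6+/- levels were higher by 0.17.

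Grb14, an adaptor that binds the insulin receptor and dampens its signal, had the largest difference of the leads that were higher. Ratios were 1.44, 0.38, 1.03 and 0.73 in gastrocnemius and −0.03, 0.19, −0.11 and −0.71 in TA, a difference of 1.06 (95% interval 0.54 to 1.58; limma, unadjusted p = 0.00092). Gastrocnemius values were spread widely, and the lowest stood above the highest TA value, as the choice of leads requires. Msrb2, a mitochondrial methionine sulfoxide reductase, gave 0.78, 0.08, 0.54 and 0.34 in gastrocnemius and −0.25, −0.03, −0.35 and −0.55 in TA, a difference of 0.73 (95% interval 0.38 to 1.08).

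The remaining leads in this direction had differences from 0.50 to 0.59. For Car7, a cytosolic carbonic anhydrase, ratios were 0.41, 0.16, 0.64 and 0.20 against −0.09, −0.30, −0.44 and −0.12, and the difference was 0.59. Myh10, a non-muscle myosin heavy chain, gave 0.64, 0.53, 0.70 and 0.17 against −0.02, 0.01, −0.02 and −0.26, a difference of 0.58. All gastrocnemius arrays were the higher ones in both genes, again by the choice of leads. Tmem177, a mitochondrial protein linked to cytochrome c oxidase assembly, had a difference of 0.50, and its second probe 0.23. For P2rx3, an ATP-gated ion channel, the brighter probe gave 0.58 and the other −0.11. Ncmap, a myelin protein, was of the same kind, with 0.51 and −0.12, and with the probes averaged the differences were 0.24 and 0.20. Ncmap had 0.91 with Agilent's processed signals. Pcnx2 had a difference of 0.59, and its WT gastrocnemius signal was well above background on 3 of 4 arrays, so the size is uncertain. With Agilent's processed signals it was 1.38, and with a normexp offset of 0 it was 1.09.

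Among the leads that were lower in gastrocnemius, Vasp, which promotes actin filament elongation, had ratios of −0.74, −0.86, −0.29 and −0.52 in gastrocnemius and −0.04, −0.02, 0.35 and 0.13 in TA. All gastrocnemius arrays were lower than all TA arrays, by the choice of leads, and the difference was −0.71 (95% interval −1.01 to −0.40; limma, unadjusted p = 0.00039). Pck1, the gluconeogenic and glyceroneogenic phosphoenolpyruvate carboxykinase that is abundant in fat cells, gave −0.65, −0.29, −0.91 and −1.06 against 0.36, −0.23, 0.55 and 0.72. Its difference was −1.08 (95% interval −1.55 to −0.61; limma, unadjusted p = 0.00042), and the Eif6+/- TA signal was above background on 3 of 4 arrays. Cebpa, a transcription factor of adipocyte differentiation, gave −0.30, −0.61, −0.92 and −1.17 against −0.03, −0.14, 0.49 and −0.21, a difference of −0.78, or −1.17 with Agilent's processed signals. Pck1 and Cebpa were thus low in Eif6+/- gastrocnemius relative to WT gastrocnemius, while in TA the ratio of Pck1 was above 0 on 3 of 4 arrays. WT gastrocnemius was the brightest group for both. Log2 levels of Pck1 were 8.62 in WT and 7.89 in Eif6+/- gastrocnemius, against 6.69 and 7.05 in TA. Those of Cebpa were 8.08 and 7.33, against 6.88 and 6.91.

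The others of this direction were smaller. Ptx3, a secreted pattern-recognition protein, had a difference of −0.46, Sfxn3, a mitochondrial sideroflexin, −0.48, and Mllt11 −0.40. Fbxl4, a mitochondrial F-box protein, had −0.36 by its brighter probe and −0.10 by the other, and Sec61b, a subunit of the protein channel of the endoplasmic reticulum, −0.55 and −0.16. Averaged over probes they had −0.23 and −0.36. Tmem179b had −0.35. For Rpl10, a protein of the large ribosomal subunit, the brightest probe gave −0.44 and the others 0.03 and −0.11, with −0.17 for their mean. The brightest probe itself gave −0.27 with loess alone, −0.26 in the authors' ratios and −0.21 with Agilent's signals.

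**Figure D2:**
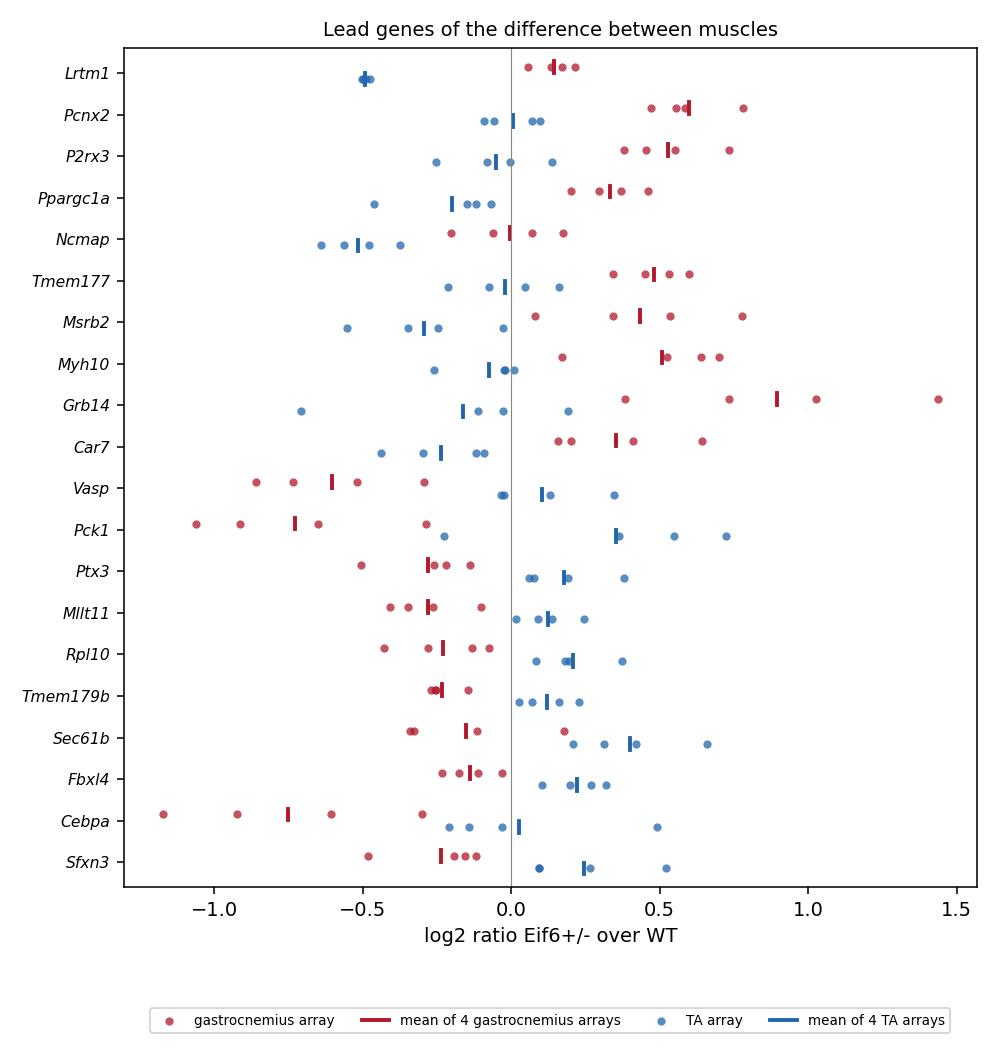
Log2 ratio of Eif6+/- over WT on each array (points) for the 20 lead genes, with the mean of the 4 arrays of each muscle as a vertical line, gastrocnemius in red and TA in blue. For every gene shown the red and blue points do not overlap, since the genes were chosen for this. Lrtm1 has the tightest TA values, between −0.50 and −0.48.

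The clearest group was oxidative phosphorylation, the complexes of the inner mitochondrial membrane that carry electrons to oxygen and make ATP. All 81 listed genes were measured, and 79 had a difference above 0 (97.5%, against 52.2% of all genes). They are called subunits here, though the list also holds Atpif1 and Cycs, which are not subunits of a complex. The median difference was 0.28, against 0.01 over all 12210 genes. Under an unadjusted p of 0.05 there were 40 subunits higher in gastrocnemius (49.4%) and 0 lower, and 19 (23.5%) did not overlap, all of them higher, where 8.17% and 4.06% of all genes did so in either direction. The median over the subunits was 0.33, 0.17, 0.43 and 0.13 on the gastrocnemius arrays and 0.14, 0.05, −0.05 and −0.14 on the TA arrays. The gastrocnemius medians were mostly the higher, with slight overlap between Gastroc pair 4 and TA pair 1. The median difference ran from 0.23 to 0.34 as each array was left out, and no subunit passed the adjustment.

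By complex the picture was even. Of 37 complex I subunits, which take electrons from NADH, 36 were above 0, 16 had an unadjusted p under 0.05, 8 did not overlap and the median was 0.26. Complexes II, III and IV had 27 subunits measured, of which 26 were above 0, 15 had such a p and 7 did not overlap, with a median of 0.32. All 17 ATP synthase subunits were above 0, with 9, 4 and 0.29 by the same measures. Each complex had a median well above the 0.01 of all genes. In the same order, the shares with such a p were 43.2%, 55.6% and 52.9%, against 8.17% of all genes. The shares without overlap were 21.6%, 25.9% and 23.5%, against 4.06%.

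Cox6b1, a subunit of cytochrome c oxidase, had the smallest p of the group. Ratios were 0.28, −0.06, 0.29 and −0.12 in gastrocnemius and −0.51, −0.30, −0.48 and −0.48 in TA, a difference of 0.54 (95% interval 0.28 to 0.80). Here the TA arrays were low, and gastrocnemius lay around 0. Uqcrfs1, the Rieske iron-sulphur protein of complex III, showed the other arrangement, with 0.75, 0.60, 0.89 and 0.26 in gastrocnemius against 0.22, 0.15, −0.02 and −0.05 and a difference of 0.55. Cox4i1, with 0.45, and Cox7a2, with 0.44, are further subunits of cytochrome c oxidase. In complex I the differences were 0.43 for Ndufa9, 0.42 for Ndufa11, 0.34 for Ndufb6 and 0.31 for Ndufab1. In the ATP synthase, Atp5k had ratios of 0.45, 0.42, 0.53 and 0.21 against 0.12, 0.05, −0.12 and −0.03, a difference of 0.40, and Atp5g1, of the membrane ring, had 0.36. None of the genes named in this paragraph overlapped between muscles.

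The promoters of these genes are shown because most subunits had a difference of the same sign. RefSeq windows (GRCm38.p6, 250 bases before to 50 after the start) were found for 9734 of 12210 genes and 68 of the 81 subunits. Of 6 motifs searched on both strands, the NRF1 core GCATGCGC was in 11 windows of the subunits (16.2%) and 5.74% of all, and the estrogen-related receptor motif AAGGTCA in 9 (13.2%) and 4.12%. The cAMP response element TGACGTCA was in 5 (7.35%) and 3.54%, and the AP-1 motif TGACTCA in 6 (8.82%) and 4.67%. The MEF2 core TATTTATA and the serum response element core CATATTAG were in 0 windows of the subunits, and in 1.42% and 0.288% of all. Among the leads, AAGGTCA was in the windows of Ncmap and Msrb2, 2 of the 9 windows of the higher leads (22.2%), and TGACTCA in that of Lrtm1. TGACTCA was also in those of Sec61b and Fbxl4, 2 of the 10 lower leads. A match is a description, not a site or a cause, and no match says only that the letters are not in the window. The 250 bases before the start of each gene below run 5′ to 3′ on the gene's strand, with the motif in capitals. They lie at chr14:29017958-29018207 (plus strand) for Lrtm1, chr2:19371386-19371635 (plus) for Msrb2, chr5:108434400-108434649 (minus) for Atp5k and chr17:56717512-56717761 (plus) for Ndufa11. The run GCGCATGCGC in the latter pair holds GCATGCGC on both strands, overlapping, and Ndufa11 also holds TGACGTCA. The searched window of Atp5k also holds AAGGTCA, outside the 250 bases shown.
Lrtm1: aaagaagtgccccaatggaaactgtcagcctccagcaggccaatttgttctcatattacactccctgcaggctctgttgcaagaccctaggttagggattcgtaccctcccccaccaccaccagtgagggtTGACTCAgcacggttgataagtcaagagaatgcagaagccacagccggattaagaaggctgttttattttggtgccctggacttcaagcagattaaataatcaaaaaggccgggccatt
Msrb2: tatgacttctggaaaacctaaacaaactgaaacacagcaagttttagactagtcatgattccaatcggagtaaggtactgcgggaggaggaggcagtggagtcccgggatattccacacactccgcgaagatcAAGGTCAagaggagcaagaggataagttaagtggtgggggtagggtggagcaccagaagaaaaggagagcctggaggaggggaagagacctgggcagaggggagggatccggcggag
Atp5k: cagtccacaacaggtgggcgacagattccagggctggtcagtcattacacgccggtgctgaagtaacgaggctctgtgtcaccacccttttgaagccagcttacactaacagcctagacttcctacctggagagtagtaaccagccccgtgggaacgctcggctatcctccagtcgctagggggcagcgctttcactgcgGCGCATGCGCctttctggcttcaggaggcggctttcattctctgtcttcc
Ndufa11: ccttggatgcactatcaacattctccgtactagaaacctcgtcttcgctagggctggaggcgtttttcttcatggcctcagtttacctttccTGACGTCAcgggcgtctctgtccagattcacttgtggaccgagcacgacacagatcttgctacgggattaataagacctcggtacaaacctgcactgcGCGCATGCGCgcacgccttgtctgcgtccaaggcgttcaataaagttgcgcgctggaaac

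The levels within each genotype show where the ratios differ. Within WT (Cy3), the oxidative phosphorylation subunits had a median log2 level in gastrocnemius minus TA of −0.45, and 78 of 81 were lower in gastrocnemius. Within Eif6+/- (Cy5) the median was −0.15, and 73 of 81 were lower. Each difference given above equals the Eif6+/- gap minus the WT gap, so these gaps restate it and are not further evidence. The gap between muscles was smaller in Eif6+/- for 77 of the 81. The same held more widely, since 63.8% of all genes had the smaller gap in Eif6+/-, with an SD over genes of 0.25 against 0.34 in WT. Dye and genotype cannot be told apart in this width, as every Eif6+/- sample was in Cy5.

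**Figure D3:**
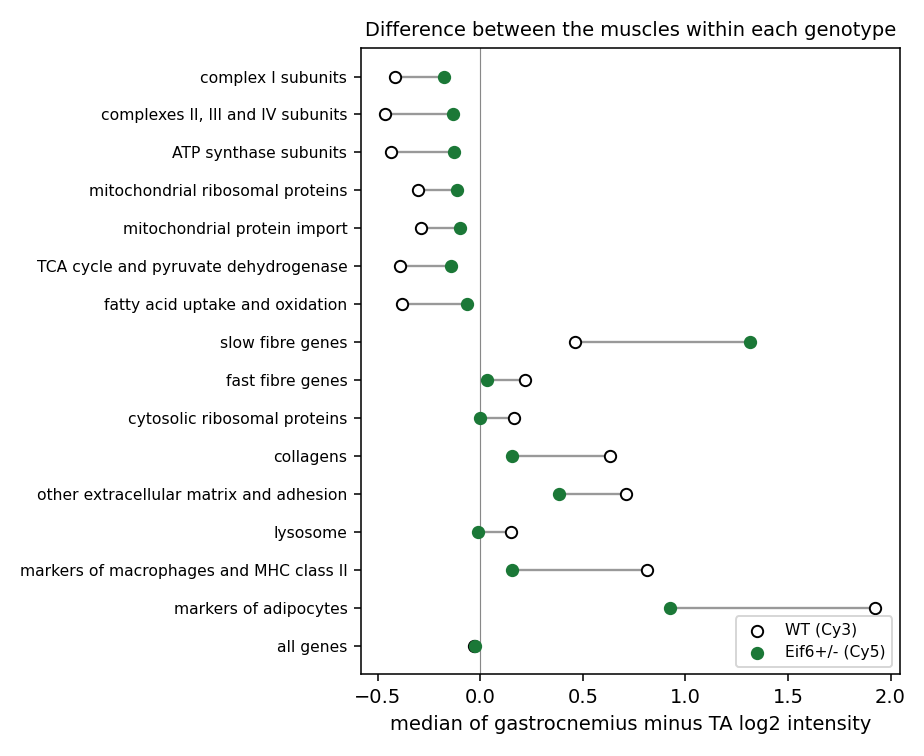
Median over the genes of each list of the log2 intensity in gastrocnemius minus TA, within WT (open circles, Cy3) and within Eif6+/- (green circles, Cy5). Subunits of the respiratory complexes lie between −0.46 and −0.42 in WT and nearer to 0 in Eif6+/-. Markers of adipocytes lie at 1.93 in WT and 0.93 in Eif6+/-, and slow fibre genes at 0.46 in WT and 1.31 in Eif6+/-.

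Other mitochondrial groups had medians of the same sign. Mitochondrial ribosomal proteins, which translate the genes of the organelle, had 72 of 75 above 0 (96%), 20 higher with an unadjusted p under 0.05 (26.7%), 7 higher without overlap (9.33%) and a median of 0.16. Over all genes the shares in that direction were 52.2%, 4.7% and 2.63%. Mrpl15, for example, had 0.39, and 0.21 as the mean of its probes. Import factors, which bring proteins in from the cytosol, had 23 of 27 above 0, 8 with such a p (29.6%) and a median of 0.20, and Pmpcb, a subunit of the mitochondrial processing peptidase, had 0.29. The tricarboxylic acid cycle and pyruvate dehydrogenase had 24 of 25 above 0 and a median of 0.26, which was 0.14 without Gastroc pair 1. Dlat, of pyruvate dehydrogenase, did not overlap and had 0.37.

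Fatty acid uptake and oxidation had 31 of 35 genes above 0 (88.6%, against 52.2% of all genes), 9 with an unadjusted p under 0.05 (25.7%, against 8.17%) and a median of 0.36. The 2 that did not overlap (5.71%) are near the 4.06% of all genes. Mlycd, which breaks down the malonyl-CoA that restrains fatty acid entry to mitochondria, did not overlap and had 0.40. Plin5, a coat protein of lipid droplets beside mitochondria, had ratios of 1.62, 0.29, 1.12 and −0.11 in gastrocnemius and −0.94, 0.24, −0.13 and −1.20 in TA. The difference was 1.23, and Gastroc pair 4 lay within the TA range. The median of the list on the arrays was 0.52, −0.19, 0.41 and −0.12 in gastrocnemius, high in pairs 1 and 3, and −0.23, 0.02, −0.01 and −0.44 in TA.

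Among 19 regulators of mitochondrial biogenesis, 14 were above 0 (73.7%, against 52.2% of all genes), 6 had an unadjusted p under 0.05 (31.6%, against 8.17%) and the median was 0.12, or 0.08 without Gastroc pair 2. Sirt3, a mitochondrial deacetylase, had ratios of 0.84, 0.43, 0.72 and 0.43 against 0.20, 0.20, −0.13 and −0.15, a difference of 0.57. Gastrocnemius stood above TA on every array for Sirt3. The nuclear receptor Esrrb, with 0.72, and the coactivator Ppargc1b, with 0.55, overlapped. Mitochondrial carriers had 25 of 33 above 0 (75.8%), with 2 higher and 1 lower at an unadjusted p under 0.05, a share of 9.09% that is near the 8.17% of all genes. Slc25a4, the adenine nucleotide carrier of muscle, had 0.62 without overlap, and Ucp2, an uncoupling protein homologue, −0.52, or −0.82 with Agilent's signals. Of 24 antioxidant enzymes 14 were above 0 and the median was 0.06, which ranged from 0.02 without Gastroc pair 1 to 0.09 without Gastroc pair 4. Sod2, the superoxide dismutase of mitochondria, had 0.38.

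Glycolysis and glycogen genes did not share the direction. Of 36, 14 were above 0 (38.9%, against 52.2% of all genes), with 3 higher and 3 lower at an unadjusted p under 0.05 (16.7%, against 8.17%) and a median of −0.11, which was −0.01 without Gastroc pair 1 and −0.07 without TA pair 2. Gbe1, the branching enzyme of glycogen synthesis, had ratios of 1.02, 0.95, 0.70 and 0.62 in gastrocnemius and 0.08, 0.57, 0.02 and −0.31 in TA, a difference of 0.73 without overlap. Ppp1r3a, which targets a phosphatase to glycogen, had −0.36 without overlap. Members of the same pathway thus lay on either side of 0.

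The median for genes of slow fibres moved with the array that was left out. Of 15, 13 were above 0 (86.7%, against 52.2% of all genes), 3 had an unadjusted p under 0.05 (20%, against 8.17%) and the median difference was 0.56. The list median on the arrays was 1.98, −0.51, −0.08 and −0.01 in gastrocnemius and −0.08, −0.40, −0.08 and −0.70 in TA. Gastroc pair 1 was far above the rest, and the median difference was 0.15 without it and 0.93 without Gastroc pair 2. Myh7, the slow myosin heavy chain, had 5.01, −1.81, −0.26 and −0.34 in gastrocnemius and 0.15, −2.61, 1.40 and −0.70 in TA. Its difference was 1.09, −0.36 without Gastroc pair 1, and it also moved without Gastroc pair 2 (1.91), TA pair 2 (0.37) or TA pair 3 (1.71). Mb, the oxygen store myoglobin, had 1.98, −0.26, 0.38 and 0.22 against −0.08, −0.45, −0.47 and −1.15, a difference of 1.12, and Myoz2, a slow-fibre protein of the Z-disc, had 1.29. Without Gastroc pair 1 these were 0.65 and 0.60. The oxidative phosphorylation median without the same array was 0.24. In gastrocnemius the level of Mb varied more in WT (SD 0.79) than in Eif6+/- (SD 0.40). That of Myoz2 did likewise, with 1.13 and 0.75. A high ratio here need not be a gain in Eif6+/- muscle, and this was not tested.

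Mybpc1, the slow isoform of myosin-binding protein C, was the member without overlap. Ratios were 2.18, 0.84, 0.95 and 0.89 in gastrocnemius and 0.14, 0.08, 0.10 and 0.03 in TA. Gastroc pair 1 was the highest, and the other gastrocnemius arrays also stood clear of TA, with a difference of 1.13 (95% interval 0.57 to 1.69) and 1.04 by a second probe, again without overlap. Without Gastroc pair 1 the difference was 0.81.

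Fast fibre genes had 4 of 16 above 0 and a median of −0.13, which was −0.20 without TA pair 2, −0.19 without TA pair 3 and −0.03 without TA pair 4. Myh4, the fastest and most glycolytic myosin, had −0.45, and −0.28 without Gastroc pair 1. The intermediate fast myosins lay the other way, Myh1 with 0.91 and Myh2 with 1.57, where the latter held 3.92 on Gastroc pair 1. Without that array they had 0.61 and 0.80, and Myh2 had 1.04 without TA pair 4. The gastrocnemius level of Myh2 had an SD of 1.42 in WT and 0.33 in Eif6+/-. Tpm1, a tropomyosin of fast fibres, had −0.45, or −0.24 as the mean of its probes. Genes of immature muscle had 5 of 23 above 0 and a median of −0.25, which was −0.09 without Gastroc pair 3 and −0.16 without TA pair 2. Mybph, a myosin-binding protein, gave −1.96, −0.66, −1.13 and −1.39 against −0.09, −0.34, 1.93 and 0.05, a difference of −1.67 without overlap. Myog, the differentiation factor myogenin, had −0.78 with overlap, or −1.30 with Agilent's signals.

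Proteins of the cytosolic ribosome, on whose large subunit Eif6 acts, lay opposite to the mitochondrial ones. All 80 were measured, 5 were above 0 (6.25%, against 52.2% of all genes), 11 had an unadjusted p under 0.05 and were lower (13.8%, against 3.47%), 6 were lower without overlap (7.5%, against 1.43%) and the median was −0.17. List medians were −0.22, 0.05, −0.20 and 0.03 on the gastrocnemius arrays and 0.17, 0.05, 0.11 and 0.06 on the TA arrays. Gastroc pairs 1 and 3 were the low arrays, and pairs 2 and 4 lay beside the TA values. Leaving out each array in turn gave −0.25 to −0.11. Rpl28 and Rpl23a, of the large subunit, each had −0.31 without overlap, and Rps23, of the small subunit, −0.29 with overlap, or −0.17 with Agilent's signals.

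Other parts of the translation machinery lay near 0. Of 39 initiation factors 17 were above 0, with 1 gene in either direction at an unadjusted p under 0.05 (5.13%, below the 8.17% of all genes) and a median of −0.02. Eif3i had 0.32 and Eif3a −0.20, both without overlap and both subunits of the complex that loads mRNA onto the small subunit. Of 10 genes of Eif6 release and large subunit maturation 4 were above 0, with a median of −0.05. Over the settings tried, the initiation factors had medians of −0.04 to 0.01 and the release genes −0.08 to −0.02.

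**Figure D4:**
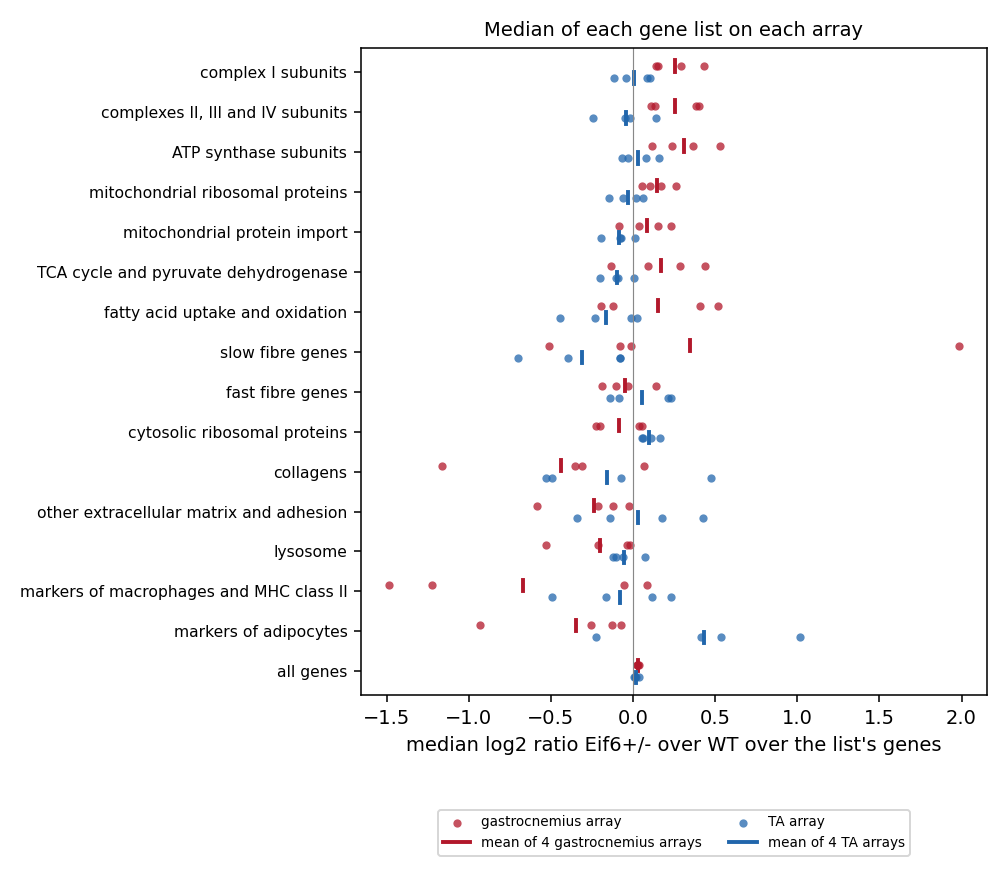
Median log2 ratio of Eif6+/- over WT over the genes of each list on each array (points), with the mean of the 4 arrays of each muscle as a vertical line, gastrocnemius in red and TA in blue. The means of the respiratory complexes lie to the right of TA in gastrocnemius, that of cytosolic ribosomal proteins to the left, slow fibre genes have Gastroc pair 1 far to the right, and markers of macrophages have Gastroc pairs 1 and 3 to the left. The medians of all genes lie at most 0.04 from 0.

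Markers of other cells in the muscle were also compared, and their part in the results was not tested. In bulk tissue, fewer cells of a type and less RNA per cell cannot be told apart. Of 13 adipocyte markers 11 were measured, 10 were below 0, 5 had an unadjusted p under 0.05 (45.5%, against 8.17% of all genes) and the median was −0.75. List medians were −0.13, −0.07, −0.25 and −0.93 in gastrocnemius and 0.41, −0.23, 1.01 and 0.53 in TA, where TA pair 2 lay among the gastrocnemius values. The hormone gene Adipoq had −1.29, Cfd −1.33, and the lipid droplet genes Plin1 and Cidec −0.75 and −0.84. Scd1, a fatty acid desaturase, had −0.83, the hormone gene Retn −0.63, or −0.37 without Gastroc pair 4, and the fatty acid carrier Fabp4 −0.28, or −0.14 without that array. Retn had −0.41 without TA pair 3, and Fabp4 −0.42 without Gastroc pair 3. The lipase gene Lipe had −0.07, which was 0.12 without Gastroc pair 4 and 0.02 with Agilent's signals. Cidea, a lipid droplet protein, was the member above 0, with 0.55, or 0.27 without TA pair 4. Without TA pair 3, Adipoq had −0.85 and Cfd −0.86, and without Gastroc pair 4 Plin1 had −0.49 and Cidec −0.57. With Agilent's processed signals Plin1 had −1.48 and Cidec −1.08, and the WT TA signal of Plin1 was above background on 3 of 4 arrays, so its size is uncertain. Car3, which has the brightest probe of the list and is also expressed in muscle fibres, had −0.49, or −0.29 without Gastroc pair 3 and −0.33 without TA pair 4. The list was brighter in gastrocnemius than in TA by a median of 1.93 in WT and 0.93 in Eif6+/-.

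Of 16 markers of macrophages and MHC class II 13 were measured and all 13 were below 0, from −0.85 to −0.38, with a median of −0.66. The list medians were −1.22, 0.08, −1.48 and −0.06 in gastrocnemius and 0.23, −0.49, 0.11 and −0.17 in TA. Gastroc pairs 1 and 3 were low and pairs 2 and 4 lay within the TA range, and without Gastroc pair 3 the median was −0.35. The list was brighter in gastrocnemius than in TA by a median of 0.81 in WT and 0.15 in Eif6+/-. Gastrocnemius levels of every marker measured varied more in WT than in Eif6+/-, with an SD of 1.17 against 0.14 for Tyrobp and 0.67 against 0.09 for Cd74. A low ratio here need not be a loss in Eif6+/- muscle, and this was not tested. Cd14, a receptor for bacterial lipid, had −0.62 and was the member that did not overlap (7.69%, against 4.06% of all genes). It was also the 1 member with an unadjusted p under 0.05, a share of 7.69% that is near the 8.17% of all genes. H2-Ab1, an MHC class II chain and among the brightest of the list, had −0.48, or −0.21 without Gastroc pair 3, and Cd74, the invariant chain, −0.66, or −0.33 without that array. Apoe, a lipid carrier that macrophages secrete, had −1.50, −0.12, −2.57 and −0.62 against 0.01, −0.44, 0.74 and −0.39, a difference of −1.18 with overlap, or −0.73 without Gastroc pair 3. Lysosomal genes had 38 of 49 below 0 and a median of −0.13, which was −0.04 without Gastroc pair 3, and the protease Ctsc had −0.62 without overlap.

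The sizes for connective tissue genes depended on which array was left out. Collagens had 14 of 19 below 0 and a median of −0.44, with 0 genes at an unadjusted p under 0.05 (0%, against 8.17% of all genes). Without TA pair 3 the median was −0.04, and without Gastroc pair 3 it was −0.22. Other matrix and adhesion genes had 46 of 54 below 0, 9 lower with an unadjusted p under 0.05 (16.7%, against 3.47% of all genes), and a median of −0.32, which was −0.13 and −0.20 without the same arrays. Eln, the elastic fibre protein, had −0.64. Lox, which cross-links collagen and elastin, had −0.74, and its WT TA signal was above background on 2 of 4 arrays. With Agilent's signals it had −1.60. Fibroblast and tendon markers had 13 of 14 below 0, from −1.13 to 0.10 over the list, and a median of −0.31, which was −0.07 without TA pair 3, −0.19 without Gastroc pair 3 and −0.58 without TA pair 2. Of these markers 0 had an unadjusted p under 0.05 (0%, against 8.17% of all genes) and 0 did not overlap (0%, against 4.06%). The list medians of the collagens were −0.35, 0.07, −1.16 and −0.31 in gastrocnemius and −0.07, −0.53, 0.47 and −0.49 in TA, so the muscles overlapped widely.

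Red cell markers had 6 of 7 above 0 and a median of 0.37, which was 0.22 without Gastroc pair 1 and 0.15 without TA pair 2, and the globin Hbb-bt had 0.59. Smooth muscle and pericyte markers had 7 of 8 above 0 and a median of 0.32, or 0.21 without TA pair 3. Pdgfrb, a receptor of pericytes, had the smallest p of that list and was the member below 0, with −0.33. All 10 Schwann cell and myelin markers were above 0, with a median of 0.16, or 0.10 without Gastroc pair 4, and Prx, of the myelin sheath, had 0.43. Endothelial markers had a median of 0.02 over 10 genes, which was −0.03 to 0.10 over the settings tried. For satellite cells 3 of 6 markers were measured, with a median of −0.09, which was −0.18 to −0.03 over the settings, for T and B cells 3 of 12, with −0.01, which was −0.07 to 0.04 with arrays left out, and for neutrophils 2 of 10, with 0.30. The neutrophil median was 0.04 to 0.80 over the settings. Camp, 1 of the 2 neutrophil markers measured, was above background on 2 of 4 arrays in WT gastrocnemius and in Eif6+/- TA. S100a9, a neutrophil gene, was among those too dim to test. The general muscle fibre markers had a median of 0.02 over 9 genes, which was −0.09 to 0.13 over the settings. These markers went both ways, from −0.45 for Myh4 to 1.57 for Myh2. Of them 2 were higher and 1 lower at an unadjusted p under 0.05 (33.3%, against 8.17% of all genes).

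For some leads known from either muscle alone, the difference between muscles was small against the spread between arrays. Sdc4, a cell-surface proteoglycan, had 1.52, 1.45, 1.75 and 0.12 in gastrocnemius and 1.54, 1.43, 1.42 and 0.00 in TA, a difference of 0.11 (95% interval −0.76 to 0.99). Slc25a25, a calcium-activated carrier of ATP-Mg and phosphate, had 2.17, 1.24, −0.03 and 1.22 against 2.35, 1.30, 0.00 and 1.37, a difference of −0.11. In both genes the arrays of one muscle followed those of the same pair number in the other, and 1 pair stood near 0 in both muscles. For Slc25a25 each gastrocnemius value was slightly below the TA value of the same number. The sign of the difference of Sdc4 turned without Gastroc pair 3 (−0.06) or TA pair 4 (−0.25) and with array weights (−0.255), and that of Slc25a25 without Gastroc pair 3 (0.29) or TA pair 1 (0.26), settings in which 1 number is held by a single muscle. Tnnt2, the cardiac and embryonic troponin T, had −0.55 (95% interval −1.65 to 0.56), and −0.93 to −0.14 over the settings.

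Of the probes kept, 7161 had no gene name, and 503 of them had an unadjusted p under 0.05 (7.02%), 291 higher and 212 lower. Without overlap there were 281 (3.92%), 195 higher and 86 lower. Neither share was above the 8.17% and 4.06% of all genes. The abundant transcripts ENSMUST00000082405 and ENSMUST00000082411, which the gene table does not name and which were chosen after their values were seen, had differences of 0.62 and 0.71 without overlap. An interval at chr5:35975265-35982561 (mm9), chosen after its values were seen, carried 8 probes. The 4 on its forward strand all stood without overlap, with differences from 0.70 to 0.85 and a median of 0.80. The 4 on the reverse strand had differences from 0.33 to 0.61 and a median of 0.50, and each overlapped. The first forward probe had ratios of 0.47, 0.27, 0.67 and 0.18 in gastrocnemius and −0.47, 0.01, −0.81 and −0.55 in TA, where TA pair 2 was the closest to gastrocnemius. The probes share a locus and are not independent.

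**Figure D5:**
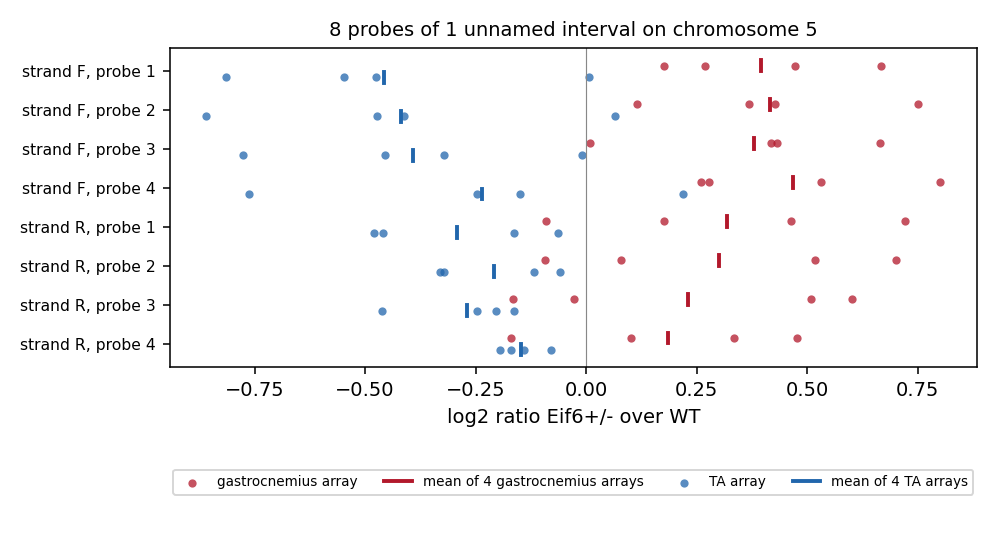
Log2 ratio of Eif6+/- over WT on each array for the 8 probes of an unnamed interval on chromosome 5, by strand (F forward, R reverse), with the mean of the 4 arrays of each muscle as a vertical line, gastrocnemius in red and TA in blue. All 4 forward probes are without overlap, with a median difference of 0.80.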

How the data were processed

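Total RNA of gastrocnemius and TA was hybridized to 8 two-color Agilent arrays, 4 per muscle, with Eif6+/- in Cy5 and WT in Cy3 per the labels. The methods name Cy3 alone as the dye, so the assignment rests on the labels. The deposited values were the scanner's intensity per spot and channel, and the authors' log2 ratios per spot. The deposited log2 ratios had medians of 0.00257, 0.000831, −0.00441 and 0.00375 on the gastrocnemius arrays and 0.00138, −0.000366, 0.00288 and 0.00212 on the TA arrays, and correlated across spots with loess-normalized ratios of uncorrected intensities at an r of 0.99996 or more on every array.

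Median intensities were background-corrected (normexp, offset 50), loess-normalized within arrays without weight on the control spots, and quantile-normalized over 16 channels in limma 3.58.1 (R 4.3.3). Outlier spots (233 to 318 per array) were masked, and the spots of a probe were averaged. Of 55681 probes, 22798 passed the filter on dim probes, by which either channel had to be clearly brighter than background on each array, and 22772 of them had a value on every array. Of 28685 probes with a RefSeq accession 27235 matched the gene table, and 15611 of the kept probes had a gene, each gene being represented by its brightest kept probe. The contrast was fitted over all probes with lmFit and eBayes, adjusted by Benjamini-Hochberg and called under 0.1. The fit was tested on simulated data. Figures were drawn with matplotlib 3.10.9 (Python 3.11.15).

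Genes were drawn by rule, and not all of them are printed: Eif6; the 10 non-overlapping genes of smallest unadjusted p in either direction, since none was called; up to 4 genes of smallest p per list; members of the marker lists; and leads of single muscles. Myh7 was named after its values were seen. Members and lists were chosen with earlier results of these data known. Alternatives covered normalization, background, signal, filter, each array left out, the pair number as a block, variance, test, threshold and unit of counting. Dim genes, for which signal over background was too small, were left out.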

Additional observations from a re-analysis of the deposited data

Results flagged for a closer look

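A single array stood far from the other arrays of its muscle in 11 of the 280 sets of 4 values examined, and chance gives about 1 in 20 such sets. Myh10 had a log2 ratio of −0.26 on TA pair 4, against −0.02 to 0.01 on the other TA arrays. Tmem179b had −0.15 on Gastroc pair 2, against −0.27 to −0.25. Mybpc1 had 2.18 on Gastroc pair 1, against 0.84 to 0.95, the same array that held the high values of slow fibre genes. Sdc4 had 0.0015 on TA pair 4, against 1.42 to 1.54.

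Car3 had −0.98 on Gastroc pair 3, against −0.18 to −0.15 on the other gastrocnemius arrays. Cox6b1 had −0.30 on TA pair 2, against −0.51 to −0.48, and Mybph had 1.93 on TA pair 3, against −0.34 to 0.05. Ppargc1b had −0.52 on TA pair 4, against −0.09 to −0.04, and Prx had −0.20 on TA pair 1, against −0.55 to −0.50.

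Among list medians, calcium release and handling had 0.14 on TA pair 4, against −0.06 to −0.03 on the other TA arrays. The cell cycle list had 0.13 on Gastroc pair 2, against −0.22 to −0.19 on the other gastrocnemius arrays.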

How the results depend on the processing

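The number of genes called higher was 0 in the analysis as reported and 1 with Agilent's processed signals, with no filter on dim probes, with the methods' t-test after adjustment and with SAM at an FDR of 0.1 and of 0.05. All other settings gave 0, and 0 genes were called lower in any. With no filter, 1794 genes had an unadjusted p under 0.05 and 766 did not overlap, by construction from more genes tested. Leaving out each array in turn gave 604 to 1821 genes with such a p and 650 to 1456 without overlap, the latter higher by construction with fewer arrays.

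Across genes the pair number did not pair the arrays: deviations of same-numbered arrays correlated at −0.14, 0.02, −0.36 and 0.09. With the pair number as a block, 0 genes were called and 841 had an unadjusted p under 0.05.

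Of the genes named in the text, Myh7, Eif6, Sdc4, Slc25a25 and Lipe took either sign over the settings. The others kept their direction in every setting that gave them a value. Pcnx2, Pck1, Ccna2, Lox and Plin1 had no value with the filter on both channels. The difference of Myh7 was −0.36 without Gastroc pair 1 and up to 1.91 in other settings. The difference of Eif6 was 0.0027 with loess alone and 0.0038 in the authors' ratios, and −0.092 to 0.048 with arrays left out. Sdc4 had −0.255 with array weights and −0.25 to 0.48 with arrays left out, and Slc25a25 −0.52 to 0.29. Lipe had 0.023 with Agilent's signals, −0.235 without Gastroc pair 1 and 0.12 without Gastroc pair 4. The causes were not tested.

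Of the list medians, deacetylases and sirtuins had 0.0060 with Agilent's signals and −0.0015 to 0.070 with arrays left out. Neutrophil markers had 0.61 with a normexp offset of 0, 0.80 with Agilent's signals and 0.043 with no filter, and Schwann cell markers 0.38 with Agilent's signals. With arrays left out, glycolysis and glycogen had −0.14 to −0.0067, circadian clock genes −0.11 to −0.029 and endothelium −0.030 to 0.10. The median over all genes stayed within 0.02 of 0 in every setting. Signal over background limits what can be said of dim genes such as Pcnx2, Pck1 and Ccna2.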

Other observations

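Insulin, Akt and mTOR signalling had 21 of 37 genes above 0 and a median of 0.01, and Tbc1d1, a Rab GTPase-activating protein of glucose transport, had 0.62. Calcium release and handling had 12 of 30 above 0 and a median of −0.06, which ranged from −0.12 without TA pair 1 to 0.01 without TA pair 4 as each array was left out. Stim1, the calcium sensor of the sarcoplasmic reticulum, had ratios of 0.32, 0.05, 0.10 and 0.14 in gastrocnemius and −0.19, −0.40, −0.48 and −0.08 in TA, a difference of 0.44 without overlap. Ppp3ca, the catalytic subunit of calcineurin, had −0.34 without overlap. Heat shock proteins had 22 of 28 above 0 and a median of 0.12, or 0.05 without Gastroc pair 1, and Hspd1, the chaperonin of mitochondria, had 0.37. The member of smallest p, the small heat shock protein gene Hspb8, lay the other way with −0.48 and overlapped.

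Cell cycle genes had 15 of 20 below 0 and a median of −0.17, which was −0.29 without Gastroc pair 2 and −0.25 without TA pair 4. Ccna2, cyclin A2, had −0.61 without overlap, or −1.81 with Agilent's signals. Its signal was above background on 3 of 4 arrays in Eif6+/- gastrocnemius and in WT TA, so the size is uncertain. Interferon response genes had 26 of 35 below 0 and a median of −0.08, which ranged from −0.14 without Gastroc pair 2 to −0.01 without Gastroc pair 3 as each array was left out, and the MHC class I gene H2-K1 had −0.46 without overlap. Genes of endoplasmic reticulum stress had a median of −0.08, or −0.05 without Gastroc pair 3. All 10 polyamine genes were below 0, with a median of −0.14, or −0.10 without Gastroc pair 1. The polyamine median ran from −0.21 to −0.08 over the settings. Amd2, an S-adenosylmethionine decarboxylase, had −0.99 with overlap.

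Immediate early genes had a median of −0.09, which ranged from −0.27 without TA pair 2 to 0.11 without TA pair 1, and Myc had −0.41 without overlap, or −0.85 with Agilent's signals. Glucocorticoid-responsive and metallothionein genes had −0.05, circadian clock genes −0.07 (−0.11 to −0.03 as each array was left out), ubiquitin conjugation −0.07 (−0.09 to −0.03), the proteasome −0.04 (−0.07 to −0.02), atrophy ligases 0.06, deacetylases and sirtuins 0.06 and the neuromuscular junction 0.01. Sex-linked markers had a median of 0.01 over 2 genes. Over the settings tried, the medians of immediate early, glucocorticoid-responsive, atrophy, deacetylase, neuromuscular junction and sex-linked genes took either sign, as did that of insulin signalling. The proteasome median ran from −0.07 to −0.0006 over the same settings.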
